A study of Homo sapiens with 5 samples.

Results

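The RNA of the mitochondrial chromosome was examined for SRSF9 binding in HEK 293T, an established line of human embryonic kidney origin. Every row of the deposited peak table placed on the mitochondrial chromosome (chrM) was taken, which gave 101 of 80514 peaks. SRSF9 is a serine/arginine-rich splicing factor, and ADAR2 is an enzyme that deaminates adenosine to inosine in double-stranded RNA. All cells overexpressed SRSF9, in one condition alone (SRSF9 only, 2 libraries) and in the other together with ADAR2 (SRSF9 plus ADAR2, 2 libraries). Bound RNA was recovered by eCLIP, in which lysate RNA is trimmed with RNase, precipitated with its protein, blotted onto a membrane, cut out and sequenced. The labels name both an antibody to SRSF9 and beads coupled for MYC. Whether the paired libraries are from different cultures is not stated, so p-values reflect only how far these libraries differ, a spread that may be technical. An input library of the cells with both proteins has no value of its own in the table. The table gives 1 log2 ratio per library and peak, made by the authors, and no read count, so the depth behind each ratio is unknown. Its denominator is not named, and a ratio below 0 is read here only as a value under that denominator. The table carries no tissue or cell markers, so the labelled cell line was not checked.

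The human mitochondrial genome is a small circle that is transcribed almost end to end from both strands into long precursors. It encodes a small-subunit and a large-subunit ribosomal RNA (rRNA), a set of transfer RNAs (tRNAs) and the mRNAs of core subunits of respiratory complexes I, III, IV and of ATP synthase (complex V). Most rRNA and mRNA genes are bordered by tRNA genes, and excision of the tRNAs by RNase P at their 5′ ends and by ELAC2 at their 3′ ends releases the RNAs between them. SRSF9 is known as a nuclear protein of pre-mRNA splicing, and mitochondrial transcripts contain no introns.

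Genes were named from the GENCODE 29 annotation of the mitochondrial chromosome, which lists 37 genes: 2 rRNAs, 22 tRNAs and 13 mRNAs. That annotation is on GRCh38 while the peaks are on hg19, whose mitochondrial numbering can differ by up to 2 nt. Moving every peak down by 1 or by 2 nt changed the gene of 0 peaks, so gene names are given and positions are printed only as the table has them, counted from 1. The table has no strand, so RNA from a gene and from the strand opposite to it could not be told apart. The nuclear genome holds copies of mitochondrial sequence, and the labels do not say how reads matching both were placed.

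The tRNAs that carried a peak are shown first, because the mitochondrial peaks above 0 lay on them and at the end of 1 rRNA. The sequences are those of the GENCODE 29 transcripts, 5′ to 3′, with the anticodon in capitals, found as its letters following T or C in the middle of the gene. They are of 66 to 71 nt.
MT-TF: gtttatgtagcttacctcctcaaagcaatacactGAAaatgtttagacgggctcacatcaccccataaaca
MT-TV: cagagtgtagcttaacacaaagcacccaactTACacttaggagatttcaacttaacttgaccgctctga
MT-TM: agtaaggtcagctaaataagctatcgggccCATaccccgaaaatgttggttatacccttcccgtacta
MT-TG: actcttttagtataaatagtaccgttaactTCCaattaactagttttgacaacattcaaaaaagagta
MT-TH: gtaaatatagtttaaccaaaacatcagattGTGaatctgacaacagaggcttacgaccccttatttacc
MT-TT: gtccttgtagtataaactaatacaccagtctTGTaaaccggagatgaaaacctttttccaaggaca
MT-TP: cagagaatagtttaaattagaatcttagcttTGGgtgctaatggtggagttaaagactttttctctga
These genes encode the tRNAs for phenylalanine, valine, methionine, glycine, histidine, threonine and proline. The last 50 nt of the large-subunit rRNA, where the remaining region above 0 lay, follow.
MT-RNR2 end: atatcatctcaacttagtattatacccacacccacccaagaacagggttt

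Mitochondrial peaks lay on 22 of the 37 genes: both rRNAs, all 13 mRNAs and 7 of the 22 tRNAs. By largest overlap 48 peaks (28 distinct regions) were on rRNA, 43 (43) on mRNA and 10 (9) on tRNA, and 0 lay outside a gene. The rRNAs make up 16.4% of the annotated mitochondrial nucleotides, the tRNAs 9.79% and the mRNAs 73.8%. Of the 101 peaks, 51 were shared by both conditions, 21 came only from cells without ADAR2 and 29 only from cells with it. Shared peaks made up 50.5% of the mitochondrial peaks (95% Wilson interval 40.9 to 60.0), against 4.66% (4.52 to 4.81) of the nuclear ones. The nuclear share is low mostly because 71920 nuclear peaks, or 89.4%, were found only with ADAR2. Among peaks present without ADAR2 the contrast was smaller, with 51 of 72 mitochondrial and 3751 of 8493 nuclear peaks shared. Counting rows of identical coordinates once narrowed it further, to 30 of 51 mitochondrial regions, against 3615 nuclear regions shared and 4742 only without ADAR2. With rows of identical coordinates counted once, 30 of 80 mitochondrial regions were shared, or 37.5% (27.7 to 48.5), against 4.50% (4.36 to 4.65) of the nuclear regions. These intervals cover counting error only, and touching regions are not independent.

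Not all peaks are separate measurements. Among the 51 shared rows, 21 had the same start and end as an earlier one. Such rows were averaged, which left 30 shared regions and 80 regions in all. Of the 21 regions found only without ADAR2, 11 touched another of them end to end, as in the 4 that run through MT-RNR2 over chrM:1704-1768. The 51 regions present without ADAR2 held only 39 different values in the second SRSF9-only library, so neighbouring regions often carried 1 and the same value there. In that library 31 of the 51 shared rows had a value longer than 3 decimals, the form a mean of several values takes. In the first SRSF9-only library 0 had one. Both libraries with ADAR2 also held values of that form, as at chrM:1827-1926 with -3.52271 and -3.40783. Their 59 regions held 54 different values in the first library and 55 in the second, so some regions shared a value there too.

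**Figure D1:**
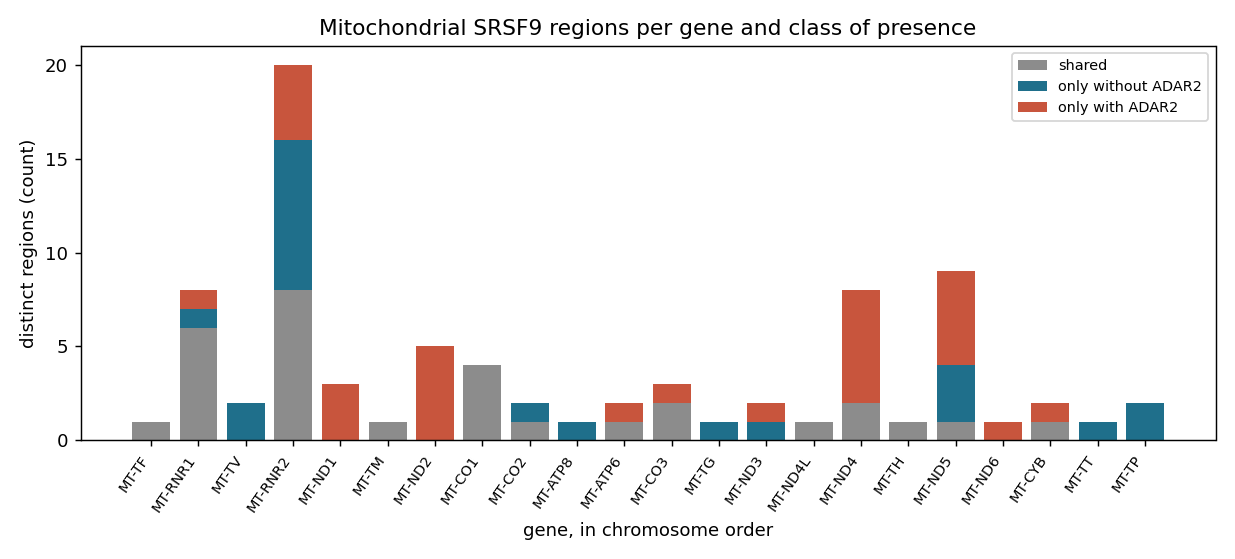
Number of distinct SRSF9 regions (vertical axis, count) on each mitochondrial gene with a region, in chromosome order, stacked by class of presence. MT-RNR2 held 20 regions, and the 5 regions of MT-ND2 and 3 of MT-ND1 were all found only with ADAR2.

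The classes of presence differed in number between the kinds of gene. On mRNA there were 24 regions only with ADAR2, 6 only without it and 13 shared, which covered 2170 nt with ADAR2 and 1001 nt without. On tRNA there were 0 only with ADAR2, 6 only without it and 3 shared, covering 89 nt and 239 nt. On rRNA there were 5, 9 and 14, covering 768 nt with ADAR2 and 847 nt without. Regions found only with ADAR2 thus made up 55.8% of those on mRNA, 17.9% on rRNA and 0 of 9 on tRNA, all below the 89.6% of nuclear regions, and those found only without it made up 14.0%, 32.1% and 66.7%, against 5.91% of nuclear regions. With a single peak set for each condition there is no spread between libraries to test these numbers against.

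By respiratory complex the mRNA regions fell as follows, with no test of the difference between complexes. The 7 complex I subunit genes held 29 regions, of which 21 were found only with ADAR2, 4 only without it and 4 in both conditions. The share only with ADAR2, 72.4%, was below the 89.6% of nuclear regions. The 3 complex IV genes, which encode the catalytic core of cytochrome c oxidase, held 9 regions, of which 7 were shared. MT-CYB, the cytochrome b of complex III, had 1 shared region and 1 only with ADAR2. The 2 ATP synthase genes, MT-ATP6 and MT-ATP8, held 3 regions, 1 of each class.

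Over all classes the median width was 37 nt for mitochondrial and 34 nt for nuclear regions. Shared mitochondrial regions had a median width of 57.5 nt (quartiles 27.5 and 75.25), those only with ADAR2 42 nt (24 and 64) and those only without it 19 nt (9 and 27). The nuclear medians of these classes were 50, 34 and 32 nt, so the mitochondrial median was higher in the first 2 classes and lower in the third, with no test made. Of the 21 mitochondrial regions only without ADAR2, 11 touched another of them, against 0 of the 29 only with it. The median of 19 nt thus includes pieces of longer stretches. Touching was not counted among nuclear regions. The widest was a shared region of 165 nt on MT-CO1, chrM:6423-6587, and the narrowest a shared region of 1 nt on MT-RNR1 at chrM:1287.

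Nearly all mitochondrial ratios were below 0. With ADAR2 all 80 mitochondrial peaks were below 0 in both libraries, where 7.45% of all peaks with ADAR2 were, and 0 were above 0, where 92.5% of all were. Without ADAR2 it was 60 of 72, against 25.7% of all peaks without it. Peaks here are rows with repeats counted each time, and they lie at 59 distinct regions with ADAR2 and 51 without. The medians over mitochondrial peaks were -0.71 and -1.36 in the SRSF9-only libraries and -2.87 and -1.96 in those with ADAR2. Over nuclear peaks the corresponding medians were 1.10 and 0.24, and 1.16 and 1.06, so the mitochondrial median was the lower in each of the 4 libraries. Over the 30 shared mitochondrial regions, with repeats averaged, the medians were -0.82 and -1.43, and -2.30 and -1.52, in the same order. The lowest of the nuclear medians was in the second SRSF9-only library, and the lowest of the mitochondrial ones in the first library with ADAR2. The table lists only peaks whose paired libraries share a sign, so a sign seen in both is no replication of its own.

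**Figure D2:**
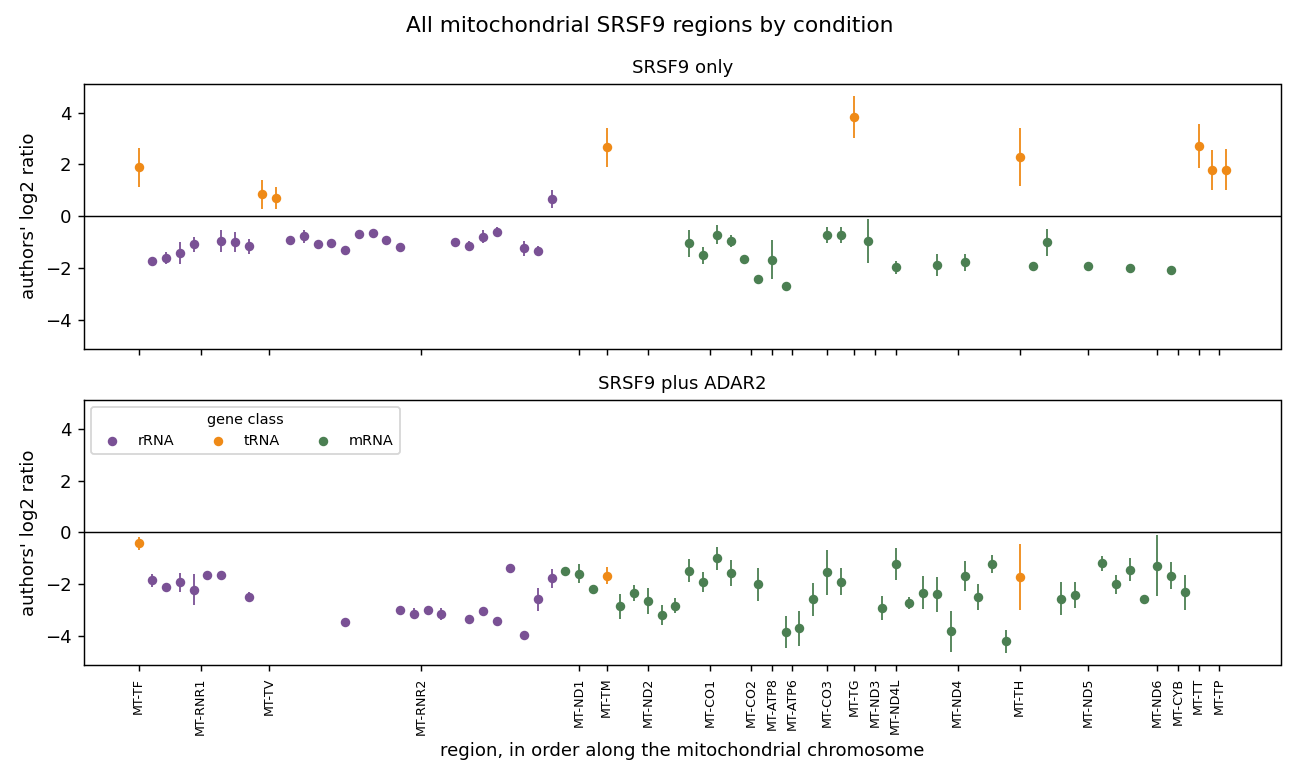
Authors' log2 ratio (vertical axis) of every mitochondrial region in chromosome order (horizontal axis), without ADAR2 above and with ADAR2 below; points are the mean of 2 libraries, lines join the libraries, and colours give the gene class. The regions above 0 without ADAR2 are those on tRNA and 1 at the end of MT-RNR2, and all regions with ADAR2 lie below 0.

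The 12 mitochondrial peaks above 0 without ADAR2 comprised all 10 on tRNA and 2 on MT-RNR2. Over all peaks without ADAR2, 74.3% were above 0 in both libraries. On mRNA it was 0 of 19, and on rRNA 2 of 43. After each library was centred on the median of its own peaks, 11 of the 12 remained above 0. The share of all peaks above 0 on that scale is not given. In the first library the median was 1.07. MT-TV at chrM:1635-1671 stayed narrowly above it, and a row of the MT-RNR2 region, at 0.83, did not. Repeated rows of MT-TF and of the MT-RNR2 region are counted apart here.

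The highest lay on MT-TG, the tRNA for glycine, at chrM:10016-10053, with ratios of 4.66 and 3.01 in the SRSF9-only libraries and no peak with ADAR2. These values ranked 1 and 2 among the 8565 peaks without ADAR2 in the first and second library. MT-TT, the threonine tRNA, at chrM:15920-15947, had 3.56 and 1.87, and it too had no peak with ADAR2. It was next by its mean and in the first library, while in the second MT-TM was higher, at 1.90. MT-TT ranked 35 and 81.

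MT-TP, the proline tRNA, is encoded on the opposite strand to MT-TT and lies next to it. It held 2 touching regions, chrM:15960-15964 with 2.56 and 1.01 and chrM:15965-15986 with 2.59 and 1.01, neither present with ADAR2. Since the table has no strand, these can also come from RNA antisense to MT-TP. MT-TV, the valine tRNA between the rRNA genes, also held 2 touching regions found only without ADAR2, with 1.41 and 0.29 at chrM:1615-1634 and 1.12 and 0.29 at chrM:1635-1671. These were the lowest of the tRNA ratios, and ranked 3091 and 4228 in the first library.

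The remaining 3 tRNAs had regions in both conditions. MT-TM, the methionine tRNA, at chrM:4433-4461, had 3.41 and 1.90 in the SRSF9-only libraries and -2.01 and -1.35 with ADAR2. MT-TH, the histidine tRNA, at chrM:12171-12204, had 3.40 and 1.16 in the former and -2.99 and -0.46 in the latter. MT-TF, the phenylalanine tRNA that opens the rRNA unit, at chrM:617-642, had 2.66 and 1.11 against -0.67 and -0.19. In all 3 both SRSF9-only libraries lay above both libraries with ADAR2, and the second SRSF9-only library was the lower of its pair.

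Of the 9 tRNA regions, 8 ended within 10 nt of the 3′ end of the gene. The 9 lie on 7 tRNAs, and the 2 touching regions of MT-TP and the 2 of MT-TV are counted apart here. Positions were counted in the direction of the tRNA, allowing for an offset of 0 to 2 nt between the numberings. The regions ended 5 to 7 nt before the 3′ end in MT-TF and MT-TG, 8 to 10 nt before it in MT-TM, 2 to 4 nt before it in MT-TH and 6 to 8 nt before it in MT-TT. In MT-TP chrM:15960-15964 ended 2 to 4 nt and chrM:15965-15986 7 to 9 nt before it. In MT-TV the end of chrM:1635-1671 lay between 1 nt before and 1 nt past the 3′ end, while chrM:1615-1634 ended 36 to 38 nt before it. The first base was number 39 to 41 in MT-TF, 30 to 32 in MT-TM, 32 to 34 in MT-TH and 31 to 33 in MT-TT. It was number 60 to 62 and 38 to 40 in the regions of MT-TP, in the order above, and 32 to 34 in chrM:1635-1671 of MT-TV. These 7 regions thus began at about the anticodon, which starts at base 31 to 35 in the sequences above, or after it. The other 2 began earlier, at base 24 to 26 in MT-TG and at base 12 to 14 in chrM:1615-1634 of MT-TV. The 7 tRNAs with a region had a median GC content of 37.9% (26.5 to 45.6) and the 15 without one 39.1% (23.1 to 49.3), so the ranges overlapped.

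The region of MT-RNR2 above 0 ended 8 to 10 nt before the 3′ end of the large-subunit rRNA. At chrM:3183-3221 it had 1.02 and 0.33 in the SRSF9-only libraries and -2.14 and -1.40 with ADAR2. The region just before it, chrM:3141-3181, had -1.15 and -1.55 without ADAR2. The gene next to this end is MT-TL1, a leucine tRNA, which had no peak in either condition.

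**Figure D3:**
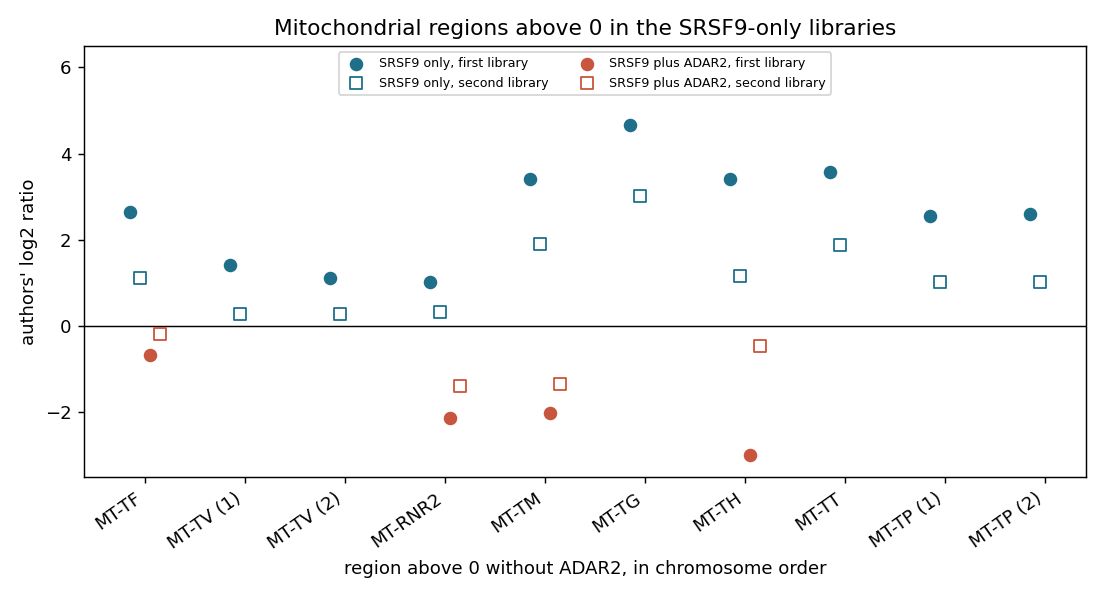
Authors' log2 ratio (vertical axis) in each library for the 10 mitochondrial regions above 0 without ADAR2, in chromosome order; numbers in brackets tell the 2 regions of a gene apart. Red symbols are missing where a region was not found with ADAR2, and where present they lie between -2.99 and -0.19.

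The 30 shared mitochondrial regions allow a comparison of ratios between the conditions, which was made with limma over all 3645 shared regions of the genome and adjusted over all of them. Of the 30, 10 fell with ADAR2 and 0 rose at a limma adjusted p under 0.05. Over all shared regions 2.41% fell and 18.5% rose. At an unadjusted p under 0.05, 14 of the 30 were lower and 0 higher, against 145 lower and 1073 higher of all 3645. The median difference was -0.98 over the 30 and 0.62 over all 3645, and 25 of the 30 were lower with ADAR2. In 17 of the 30 both libraries with ADAR2 lay below both without, against 9.22% of all shared regions, and in 1 both lay above, against 49.9%.

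All 3 tRNA regions fell. The difference was -4.34 ± 0.59 (SE, n = 2 libraries per condition) for MT-TM (limma adjusted p = 1.10e-10), -4.01 for MT-TH (limma adjusted p = 3.94e-09) and -2.31 for MT-TF (limma adjusted p = 0.00163). Leaving out 1 library moved them between -5.09 and -3.58, between -5.27 and -2.74, and between -3.08 and -1.54. The spread behind MT-TH was wide, with a mean of 2.28 ± 1.59 (SD, n = 2) in the SRSF9-only libraries and -1.73 ± 1.78 (SD, n = 2) in the others, and limma gave the same SE of 0.59 to every region, so its p-value does not use that spread.

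Of the 8 shared regions of MT-RNR2, the large-subunit rRNA, 7 fell. The largest difference among them was at chrM:2810-2912, with -0.43 and -0.81 in the SRSF9-only libraries, -3.54 and -3.30 in those with ADAR2, and a difference of -2.80 (limma adjusted p = 8.71e-05). At chrM:3117-3122 the ratios were -0.94 and -1.55 in the former and -3.99 and -3.95 in the latter, a difference of -2.73 (limma adjusted p = 0.000143). In both places the libraries of a condition lay closer to each other than the conditions did. At the 3′ end, chrM:3183-3221, the difference was -2.44 (limma adjusted p = 0.000765).

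At chrM:2525-2583 the SRSF9-only ratios were -0.54 and -1.05, against -3.12 and -2.95 with ADAR2, a difference of -2.24 (limma adjusted p = 0.00239). At chrM:2416-2436 they were -0.95 and -1.33 against -3.31 and -3.40, a difference of -2.22 (limma adjusted p = 0.00266). At chrM:1827-1926, a region that 8 rows of the table share, they were -1.21 and -1.42 against -3.52 and -3.41, a difference of -2.15 (limma adjusted p = 0.00374). At these regions no library with ADAR2 reached the level of a library without it. The smallest difference that passed was -1.80 at chrM:2244-2319, with -1.26 and -1.15 against -3.09 and -2.92 (limma adjusted p = 0.0171). The remaining region, chrM:3141-3181, had -1.15 and -1.55 against -2.14 and -3.02 and did not pass (difference -1.23, limma adjusted p = 0.121).

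None of the 6 shared regions of MT-RNR1, the small-subunit rRNA, passed, with 1 at an unadjusted p under 0.05. Their differences ran from -1.33 to -0.10 with a median of -0.61, against a median of -2.23 over the 8 of MT-RNR2. The largest was at chrM:1420-1479, with -0.86 and -1.45 against -2.66 and -2.30 with ADAR2 (limma adjusted p = 0.0909). The smallest was at chrM:684-756, with -1.63 and -1.86 against -2.10 and -1.59, where the conditions overlapped. The difference between the rRNAs was not tested.

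None of the 13 shared regions on mRNA passed either, with 2 at an unadjusted p under 0.05 and both lower with ADAR2. Their differences ran from -1.18 on MT-ATP6 to 0.75 on MT-ND4L, with a median of -0.41, and 8 of the 13 were lower with ADAR2. In MT-CO1, a catalytic subunit of cytochrome c oxidase, the 4 shared regions differed by -0.62 to -0.29. Its region at chrM:6907-6950 had the highest mean of any mRNA region in either condition, with -0.34 and -1.09 in the SRSF9-only libraries and -1.45 and -0.56 in the others. The shared region of MT-ATP6, at chrM:8909-8954, had the lowest without ADAR2, with -2.66 and -2.70, and -4.48 and -3.24 with ADAR2 (limma adjusted p = 0.142). Regions of MT-CO2, MT-ND4L, MT-ND5 and MT-CYB and 1 of the 2 of MT-ND4 had positive differences, of 0.09 to 0.75.

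**Figure D4:**
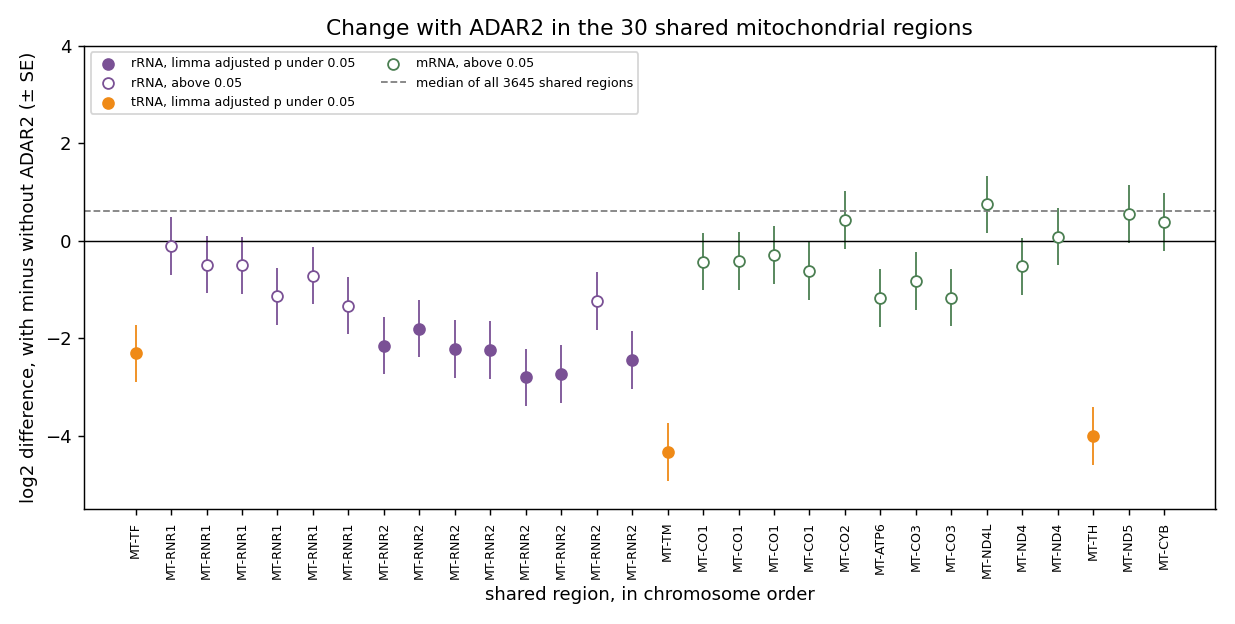
Difference in log2 ratio, with minus without ADAR2 (vertical axis, bars ± SE from limma), for the 30 shared mitochondrial regions in chromosome order; filled symbols have a limma adjusted p under 0.05 and the dashed line is the median of 0.62 over all shared regions. The 3 tRNA regions and 7 of the 8 on MT-RNR2 are filled, and those on MT-RNR1 and mRNA are open.

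The number of calls changed when 1 library was left out, although the 10 differences kept their direction. Leaving out a library leaves 1 in its condition, whose spread is assumed to be like that of the other condition. Without the first or without the second SRSF9-only library the median difference over the 30 was -0.69 and -1.17, against 0.99 and 0.27 over all 3645. In both fits no shared region of the genome passed in limma, with the prior degrees of freedom at 3.76 against infinite before. The lost calls of these fits therefore do not tell single regions apart. The p-values of the fit with all libraries use the infinite prior. Over the fits without 1 library the difference ran from -2.99 to -2.61 at chrM:2810-2912 and from -2.25 to -2.05 at chrM:1827-1926. Leaving out a library with ADAR2 also lowered the number of calls. The median difference over the 30 was then -0.55 without the first and -1.36 without the second, against 0.50 and 0.76 over all 3645. Subtracting from each library its median over the shared regions moved the median of all regions from 0.62 to 0.03. On that scale 16 of the 30 fell and 0 rose, against 10.9% and 12.6% of all regions. The 6 added were 3 on MT-RNR1, 1 on MT-RNR2, 1 on MT-ATP6 and 1 on MT-CO3. Centring changed the error estimate as well as the differences, with the prior degrees of freedom at 17.2. The SE went from 0.59 to 0.41 at chrM:2810-2912 and to 0.65 for MT-TH.

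Within a library the shared tRNA regions stood above the other mitochondrial regions more clearly without ADAR2. The median of the 3 tRNA regions exceeded that of the other 27 by 4.40 and 2.71 in the SRSF9-only libraries and by 0.30 and 1.09 in those with ADAR2. In both SRSF9-only libraries 0 of the 27 reached the lowest tRNA region, while 19 and 8 did so with ADAR2. This measure is free of a shift of a whole library. It was chosen after the values were seen, and with 2 libraries against 2 an exact two-sided permutation test cannot give a p below 0.333.

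The regions found only with ADAR2 were all below 0. On complex I mRNAs they were 6 on MT-ND4, 5 on MT-ND2, 5 on MT-ND5, 3 on MT-ND1 and 1 each on MT-ND3 and MT-ND6. By the mean of the libraries the lowest lay on MT-ND4 at chrM:12077-12095, with -4.66 and -3.76. The highest by that mean lay on MT-ND5 at chrM:13429-13484, with -1.49 and -0.91. In the second library the regions of MT-ND4 at chrM:11739-11885, at -0.86, and of MT-ND6 were higher. On MT-ND2 the regions only with ADAR2 ranged from -3.58 to -2.66 in the first library and from -2.79 to -2.03 in the second. On MT-ND1 they ranged from -2.34 to -1.61 and from -2.06 to -1.21, above those of MT-ND2 in the first library. The region of MT-ND6, the mRNA of the light strand, had -2.45 and -0.12, the widest gap between libraries among these.

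Outside complex I, 1 such region lay on each of MT-ATP6, MT-CO3, MT-CYB and MT-RNR1, and 4 lay on MT-RNR2. Of the MT-RNR2 regions, the one at chrM:2996-3022 had the highest ratios with ADAR2 on either rRNA, -1.51 and -1.25. The region on MT-ATP6 at chrM:9049-9091 had -4.40 and -3.02, close to those of the shared region of that gene with ADAR2.

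Apart from those on tRNA, the 15 regions found only without ADAR2 were below 0. They comprised 8 on MT-RNR2, 3 on MT-ND5 and 1 each on MT-RNR1, MT-CO2, MT-ATP8 and MT-ND3. By the mean of the libraries the lowest was on MT-ND5 at chrM:12473-12485, with -1.80 and -2.07. In the second library others were lower, such as that on MT-ATP8 at -2.43. That on MT-ND3 at chrM:10107-10119 had -0.12 and -1.82, so its libraries differed widely. The median distance from a region found only without ADAR2 to the nearest with ADAR2 was 129 nt, and 8 of the 21 had one within 100 nt. MT-TT and MT-TP were far from any, at 576 nt and 616 nt or more, while the region of MT-TG had one at 110 nt, on MT-ND3.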

How the data were processed

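SRSF9 eCLIP peaks were read from 1 deposited table. Its values are log2 ratios per peak and library made by the authors, with an unnamed denominator; 0 in both columns of a condition marks a peak absent there. The build is hg19 per the submitters' processing notes; for the aligner, peak caller and thresholds, none of the labels or headers gives a name. The columns have no names and were assigned to conditions by the class of presence in each row; libraries are numbered in file order. Rows with identical coordinates were averaged. Genes were assigned by largest overlap. Shared regions were compared with limma 3.58.1 in R 4.3.3 (2 libraries per condition, Benjamini-Hochberg adjustment over 3645 regions, threshold 0.05, no pseudocount or filter). The code was tried on simulated data with independent noise of a common spread. That simulation had no library shifts and no values shared between regions, unlike these data, so it does not vouch for the fit. Alternatives were centring, leaving out each library, unaveraged rows, a trended robust prior, a filter on values, other offsets, overlaps and gaps, and a stricter threshold. Named regions were those past the threshold, those above 0, the extremes per class and the widest. Members and lists were chosen with earlier results of these data known.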

Additional observations from a re-analysis of the deposited data

How the results depend on the processing

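Of the 30 shared mitochondrial regions, the number that fell with ADAR2 by limma was 10, and 16 with centred libraries, 25 of 51 with every row kept, and 11 with a trended robust prior; without 1 library it ranged from 0 to 6. None rose under any of these. The median difference stayed negative, between -1.57 and -0.55. The 10 regions that fell kept their direction in every fit; without either SRSF9-only library 0 of all 3645 regions passed, these 10 included, so those fits do not single them out, and 9 did not pass without the first and 4 without the second library with ADAR2. The filter to regions above the median mean value left 0 mitochondrial regions and gave no value. Numbers of peaks on rRNA, tRNA and mRNA were the same under shifts of 1 and 2 nt and with at least 50% of a peak required in 1 gene. With an absolute ratio of at least 1 they were 41, 8 and 35. When peaks within 100 nt of the other condition's were taken as shared, there remained 13 peaks only without ADAR2, against 21. Counting rows that repeat or touch once, an alternative chosen after seeing the data, left 30 shared peaks, against 51, and 8 of the 12 above 0 without ADAR2. No paired analysis was possible because the columns of the table carry no replicate numbers. Read depth is not in the table, so no counting error of a ratio could be given.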
